A study of Homo sapiens with 8 samples.

Results

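Nogo receptors, their co-receptors and their myelin-type ligands were followed across 8 RNA-seq libraries of IGR-N91 aggregates. IGR-N91 is an established human neuroblastoma (NB) cell line, and its cells were grown here as aggregates in hanging drops. The 9 genes were taken by their symbols from the 60676 Ensembl genes of the count matrix: the receptors RTN4R, RTN4RL1 and RTN4RL2, the co-receptors LINGO1 and TNFRSF19, the ligands RTN4, OMG and MAG, and the phosphatase receptor PTPRS. They were selected on a reading of these same data, so their differences between media are given as a description, with whether each was called and with no p-value. Of the 9 genes, 5 passed the filter on low counts and entered the fit (RTN4R, RTN4RL2, LINGO1, RTN4 and PTPRS), and each of these had at least 20 reads in every library.

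Aggregates were exposed to control medium or to 1 of 3 media conditioned by embryonic ganglia, with 2 libraries in each of the 4 groups. E8-cSGcm came from sympathetic ganglia of E8 chick embryos, E8-cDRGcm from dorsal root ganglia of E8 chick embryos, and E15.5-mSGcm from sympathetic ganglia of E15.5 mouse embryos. The exposure lasted 20 h by the sample labels and 24 h by the design text of the series. The mouse medium differs from the chick sympathetic medium in species and in embryonic day at once, so these cannot be told apart, and every library comes from the same cell line. The labels do not say that the duplicates were separate experiments, so the errors below measure the spread between these libraries, which may be technical.

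Nogo, the product of RTN4, is a reticulon of the endoplasmic reticulum that is also found at the surface of oligodendrocytes. With the myelin proteins OMG and MAG it is known for halting axon growth. All of these ligands bind RTN4R, a surface protein held by a lipid anchor that cannot signal alone and does so with LINGO1 and with either the neurotrophin receptor NGFR or TNFRSF19, upstream of RhoA and ROCK. RTN4R also binds OLFM1, a secreted olfactomedin glycoprotein. The question for these genes was how their RNA stood in NB cells bathed in media that embryonic ganglia had conditioned.

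RTN4R (ENSG00000040608) lies on chromosome 22 at 20228938 to 20270769 on the minus strand (GRCh37, GENCODE 44). Its promoter and that of PTPRS are shown because these are the 2 detected genes of the group with a single annotated start in the RefSeq table (GRCh38.p14). Each sequence is the coding strand from 250 bases before the start to 50 bases after it. Capitals mark matches, on either strand, to the GC box GGGCGG, the E-box CACGTG or the cAMP response element TGACGTCA.
RTN4R, chr22:20268269-20268568, minus strand: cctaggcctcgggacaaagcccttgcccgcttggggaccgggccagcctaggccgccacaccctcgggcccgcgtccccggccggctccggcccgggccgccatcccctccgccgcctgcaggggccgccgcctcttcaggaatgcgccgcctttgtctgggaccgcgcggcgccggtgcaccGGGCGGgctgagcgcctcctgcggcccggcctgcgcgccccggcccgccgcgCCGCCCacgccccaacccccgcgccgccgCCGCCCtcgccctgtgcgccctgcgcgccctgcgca
PTPRS, chr19:5340763-5341062, minus strand: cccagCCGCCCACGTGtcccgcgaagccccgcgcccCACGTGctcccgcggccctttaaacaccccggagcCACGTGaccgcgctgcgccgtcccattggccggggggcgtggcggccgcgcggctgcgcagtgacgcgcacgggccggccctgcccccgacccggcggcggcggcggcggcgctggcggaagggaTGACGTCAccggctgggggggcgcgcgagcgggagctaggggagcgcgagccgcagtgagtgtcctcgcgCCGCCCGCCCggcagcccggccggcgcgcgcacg
The RTN4R window is 82% G or C with 46 CpG pairs, and the PTPRS window is 81.3% with 55, where the median over all RefSeq windows is 58.7% and 14. The RTN4R window holds 3 GC boxes, and 45% of 35116 windows hold at least 1. The PTPRS window holds 3 GC boxes, 3 E-boxes and 1 cAMP response element, some of them overlapping, and E-boxes occur in 7.26% and the cAMP response element in 1.85% of windows. These matches describe the letters of the windows. RefSeq windows matched 7 of the 9 genes, and RTN4RL1 and RTN4RL2 were not among them.

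RTN4R, the receptor that gives the family its name, was highest in the chick media and lowest in the mouse medium. Its reads numbered 168 and 181 under control medium, 212 and 275 in E8-cSGcm, 228 and 246 in E8-cDRGcm, and 20 and 23 in E15.5-mSGcm. Normalized for library size by the trimmed mean of M-values (TMM), this is 12.4 ± 0.666 CPM (reads scaled to a common library size; mean ± SD, n = 2, as for all means here) in control, 18.1 ± 1.60 in E8-cSGcm, 17.5 ± 0.684 in E8-cDRGcm and 2.59 ± 0.0462 in E15.5-mSGcm. All 4 chick libraries lay above the control libraries and both mouse libraries lay below them, with no overlap. A gene was called changed when its adjusted p over all 16680 tested genes was under 0.05 in the edgeR quasi-likelihood test and its fold change was at least 1.5. In the mouse medium RTN4R was called lower than in control, with a log2 fold change of -2.25 (SE 0.200) or 4.74-fold. In the chick media its log2 fold changes were 0.56 (SE 0.118; 1.47-fold) and 0.51 (SE 0.118; 1.42-fold) for E8-cSGcm and E8-cDRGcm, both under the fold threshold and neither called. Without control replicate 1, or without E8-cSGcm replicate 1, the E8-cSGcm difference was 0.61 or 0.64 and was called.

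RTN4RL2 (ENSG00000186907, chromosome 11, 57228001 to 57245007, plus strand), the Nogo receptor homolog that binds MAG, stood in the same order. Its reads numbered 156 and 173 in control, 265 and 288 in E8-cSGcm, 249 and 307 in E8-cDRGcm, and 50 and 51 in E15.5-mSGcm. The levels were 11.7 ± 0.390 CPM in control, 20.7 ± 0.765 in E8-cSGcm, 20.6 ± 2.73 in E8-cDRGcm and 6.12 ± 0.410 in E15.5-mSGcm. Again the 4 chick libraries were above control and the 2 mouse libraries below it. Against control RTN4RL2 was called higher in both chick media, by log2 0.83 (SE 0.118; 1.78-fold) in E8-cSGcm and 0.82 (SE 0.118; 1.77-fold) in E8-cDRGcm, and called lower in E15.5-mSGcm, by log2 -0.93 (SE 0.168; 1.91-fold). Of its exonic bases, 684 (28.4%) are shared with a long non-coding RNA on the opposite strand, ENSG00000255301, which was listed with 1 to 4 reads per library, and the strand setting of the counting is not given in the sources used here.

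RTN4RL1 (ENSG00000185924, chromosome 17, 1837971 to 1928628, minus strand), the remaining receptor homolog, had 10 reads in all 8 libraries together: 2 and 1 in control, 1 and 3 in E8-cSGcm, 1 and 1 in E8-cDRGcm, and 0 and 1 in E15.5-mSGcm. No library exceeded the floor of 3 reads, which corresponds to 0.199 to 0.378 CPM depending on the library. A difference between media was not detectable at this depth, and such floors and the count intervals below cover counting error only.

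LINGO1 (ENSG00000169783, chromosome 15, 77905369 to 78113242, minus strand), the transmembrane co-receptor, was lower in the mouse medium and close to its control level in the chick media. It had 166 and 192 reads in control, 174 and 199 in E8-cSGcm, 197 and 215 in E8-cDRGcm, and 50 and 35 in E15.5-mSGcm. The levels were 12.7 ± 0.0467, 13.9 ± 0.0120, 15.2 ± 0.718 and 5.20 ± 1.70 CPM in the same order. The mouse libraries lay below every other library but stood apart from each other, at 6.41 and 4.00 CPM. LINGO1 was called lower in E15.5-mSGcm than in control, by log2 -1.30 (SE 0.178; 2.46-fold), with -1.67 without the first mouse library and -0.99 without the second, both still called. Its differences in E8-cSGcm (0.14, SE 0.129) and E8-cDRGcm (0.27, SE 0.127) were not called.

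TNFRSF19 (ENSG00000127863, chromosome 13, 24144509 to 24250243, plus strand), also called TROY, is the TNF receptor family member that can stand in for NGFR in the complex. Its reads were 1 and 0 in control, 0 in all 4 chick libraries, and 5 and 8 in E15.5-mSGcm. Only the mouse libraries rose above the floor, at 0.641 and 0.914 CPM. The summed 13 reads against 1 in control give a ratio of 21.6 per read sequenced, with an exact 95% interval of 3.24 to 917. The interval pools the libraries of each medium and covers counting error only, and the gene was chosen with these data known. The interval is therefore a description and no test. The gene was too low for the filter of the main test. Among the edgeR fits it was called higher in the mouse medium (log2 4.06) only where every gene with at least 1 read was tested. DESeq2 was also run on every gene with at least 1 read, and its result for TNFRSF19 is not reported here.

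RTN4 (ENSG00000115310, chromosome 2, 55199323 to 55339757, minus strand), the Nogo gene, was the most abundant of the 9 and was highest in the dorsal root ganglion medium. It had 7558 and 8739 reads in control, 7974 and 9417 in E8-cSGcm, 11725 and 11734 in E8-cDRGcm, and 5174 and 5823 in E15.5-mSGcm. The levels were 576 ± 2.27, 649 ± 14.2, 868 ± 12.3 and 664 ± 1.68 CPM, and no control library reached any library of a conditioned medium. RTN4 was called higher in E8-cDRGcm, by log2 0.59 (SE 0.0461; 1.51-fold), at the edge of the fold threshold: it was 0.57 and not called without E8-cDRGcm replicate 1 or after a GC correction. In E8-cSGcm and E15.5-mSGcm the differences were 0.17 (SE 0.0462) and 0.20 (SE 0.0467) and were not called. The gene has 14 annotated transcripts, 11 of them coding, so these counts do not separate Nogo-A from the shorter forms.

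The myelin ligands were not seen. OMG (ENSG00000126861, chromosome 17, 29599031 to 29624557, minus strand, within NF1 on the opposite strand and sharing none of its exons) encodes the oligodendrocyte myelin glycoprotein, and MAG (ENSG00000105695, chromosome 19, 35783028 to 35804710, plus strand) the myelin-associated glycoprotein. Each had 0 reads in all 8 libraries, which allows up to 0.199 to 0.378 CPM per library. The glial genes MOG and SOX10 were at 0 too, MBP had 1 read in 1 library, and the summed level of the myelinating glia list was 36.4 to 43.1 CPM over all libraries, nearly all of it from CNP. The label "myelin-type ligands" therefore rests on RTN4 alone in these cells.

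PTPRS (ENSG00000105426, chromosome 19, 5158506 to 5340823, minus strand) encodes a receptor tyrosine phosphatase that binds the chondroitin sulfate proteoglycans of the matrix, which also bind RTN4R. It had 3248 and 3642 reads in control, 3204 and 3417 in E8-cSGcm, 4087 and 4265 in E8-cDRGcm, and 1470 and 1633 in E15.5-mSGcm. The levels were 244 ± 6.25, 248 ± 12.5, 309 ± 4.78 and 187 ± 1.25 CPM. The E8-cSGcm and control libraries overlapped, whereas E8-cDRGcm lay above and E15.5-mSGcm below both. No difference from control reached 1.5-fold: log2 0.024 (SE 0.050) in E8-cSGcm, 0.34 (SE 0.0495) in E8-cDRGcm and -0.38 (SE 0.0524) in E15.5-mSGcm.

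**Figure D1:**
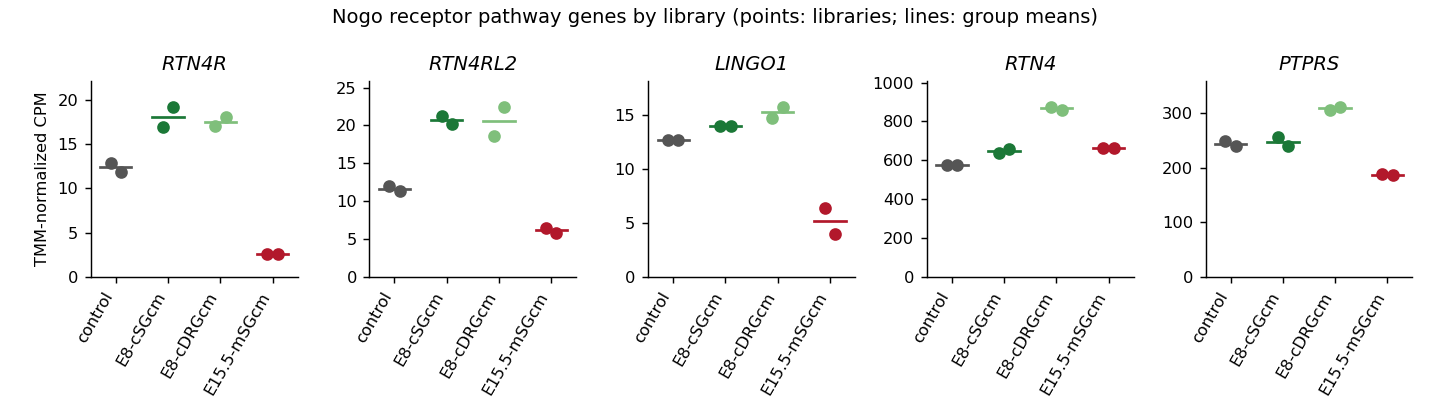
TMM-normalized CPM (linear axis from 0, 1 panel per gene) of the 5 tested genes by medium; points are libraries and lines are means of 2. RTN4R, RTN4RL2 and LINGO1 were lowest in both E15.5-mSGcm libraries, whereas RTN4 was highest in E8-cDRGcm at 868 CPM and lowest in control at 576 CPM.

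Set beside all genes, the counts were as follows. In E8-cSGcm against control 1 of the 5 tested genes was called, RTN4RL2, which was higher, where 4.73% of all tested genes were called higher and 3.86% lower. In E8-cDRGcm against control 2 were called higher, RTN4RL2 and RTN4, where 9.81% of all genes were called higher and 10.9% lower. In E15.5-mSGcm against control 3 were called lower, RTN4R, RTN4RL2 and LINGO1, where 6.65% of all genes were called higher and 7.27% lower. The median log2 fold change of the 5 genes was 0.17, 0.51 and -0.93 in E8-cSGcm, E8-cDRGcm and E15.5-mSGcm, beside 0.010, 0.0055 and -0.015 over all tested genes. The 3 comparisons use the same control libraries, and since the genes were chosen with these contrasts in view, nothing is read from these shares.

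Between the chick media RTN4R and RTN4RL2 stood close together, while RTN4 and PTPRS were higher in E8-cDRGcm. None of the 5 genes was called in E8-cDRGcm against E8-cSGcm by edgeR or by DESeq2, and each difference was under the fold threshold. Of all genes, edgeR called 2.62% higher and 4.87% lower there. RTN4R differed by log2 -0.051 (SE 0.112) and RTN4RL2 by -0.0081 (SE 0.108), with overlapping libraries. LINGO1 differed by 0.13 (SE 0.126), RTN4 by 0.42 (SE 0.0460) and PTPRS by 0.32 (SE 0.0496), with RTN4 and PTPRS at 1.34-fold or less. The libraries of LINGO1, RTN4 and PTPRS did not overlap between the chick media.

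The mouse medium stood apart from each chick medium. Against E8-cSGcm, 3 genes were called lower (10.2% of all genes were called higher and 12.1% lower): RTN4R by log2 -2.80 (SE 0.188; 6.98-fold), RTN4RL2 by -1.76 (SE 0.153; 3.39-fold) and LINGO1 by -1.44 (SE 0.176; 2.71-fold). Against E8-cDRGcm, 4 genes were called lower (13.1% of all genes were called higher and 13.1% lower): RTN4R by -2.75 (SE 0.189; 6.73-fold), RTN4RL2 by -1.75 (SE 0.153; 3.37-fold), LINGO1 by -1.57 (SE 0.173; 2.96-fold) and PTPRS by -0.72 (SE 0.0521; 1.65-fold). RTN4 was called in neither, at 0.032 (SE 0.0466) against E8-cSGcm and -0.39 (SE 0.0464) against E8-cDRGcm.

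The proportions of ligand and receptor RNA within a library, which need no scaling for library size, shifted accordingly. An effect of G and C content that differs between libraries does not cancel in them. RTN4 has 45% G or C in its exonic bases and RTN4R 65.8%, and these proportions were not corrected for it. Per read of RTN4R there were 44.99 and 48.3 reads of RTN4 in the control libraries, 37.6 and 34.2 in E8-cSGcm, 51.4 and 47.7 in E8-cDRGcm, and 259 and 253 in E15.5-mSGcm. The chick medium libraries therefore lay near the control libraries and the mouse libraries far above all others. RTN4RL2 was near parity with RTN4R in control, at 0.929 and 0.956 reads per RTN4R read, and at 2.50 and 2.22 in E15.5-mSGcm, with the chick media between at 1.05 to 1.25. LINGO1 went from 0.988 and 1.06 in control to 0.724 to 0.874 in the chick media and 2.50 and 1.52 in the mouse medium.

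Levels were ordered between genes only after division by exonic length, as RPKM, which scales reads by exonic length and library size. In control the order was RTN4 (86.7 ± 0.342 RPKM), PTPRS (20.7 ± 0.530), RTN4RL2 (4.84 ± 0.162), RTN4R (3.96 ± 0.213) and LINGO1 (2.38 ± 0.00884), with no overlap between neighbors. E8-cSGcm and E8-cDRGcm kept this order, with RTN4RL2 at 8.60 ± 0.318 and 8.54 ± 1.135 above RTN4R at 5.80 ± 0.511 and 5.61 ± 0.219 RPKM. In E15.5-mSGcm LINGO1 (0.977 ± 0.320) and RTN4R (0.830 ± 0.0148) overlapped below RTN4RL2 (2.54 ± 0.170), so RTN4R no longer stood above its co-receptor.

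The 3 genes called lower in E15.5-mSGcm are rich in G and C: 65.8% of the exonic bases of RTN4R, 67% of RTN4RL2 and 64.3% of LINGO1, against 58.1% of PTPRS and 45% of RTN4. GC-rich genes as a whole were lower in that medium. The median log2 fold change against control went from 0.095 among the 2781 tested genes under 40% GC to -0.21 among the 1420 between 60% and 65% and -0.31 among the 401 above 65%. In E8-cSGcm the same bins ran from -0.023 to 0.11, and in E8-cDRGcm they lay between -0.025 and 0.036. With GC and length effects removed library by library, an alternative added once the GC content of the genes had been seen, the mouse medium differences were -1.93 (RTN4R), -0.61 (RTN4RL2) and -1.02 (LINGO1), and all 3 were still called. RTN4RL2 was then close to the fold threshold. The correction put the chick medium differences of RTN4RL2 at 0.71 and 0.82, both still called, and those of RTN4R at 0.46 and 0.53. The mouse libraries were also the shallowest, at 7930765 and 8937397 reads in genes against 12286211 to 15060744 in the other 6, and the part of depth in these differences was not tested.

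**Figure D2:**
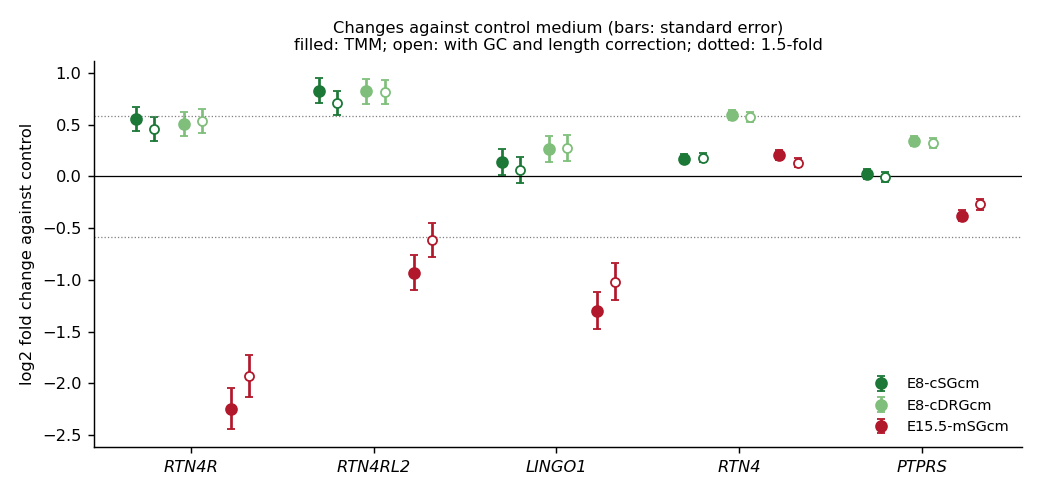
Log2 fold change against control (error bars are standard errors) of the 5 tested genes in the 3 media, as fitted (filled) and with GC and length correction (open), with dotted lines at 1.5-fold. RTN4R in E15.5-mSGcm moved from -2.25 to -1.93 and RTN4RL2 from -0.93 to -0.61, and both stayed beyond the line.

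**Figure D3:**
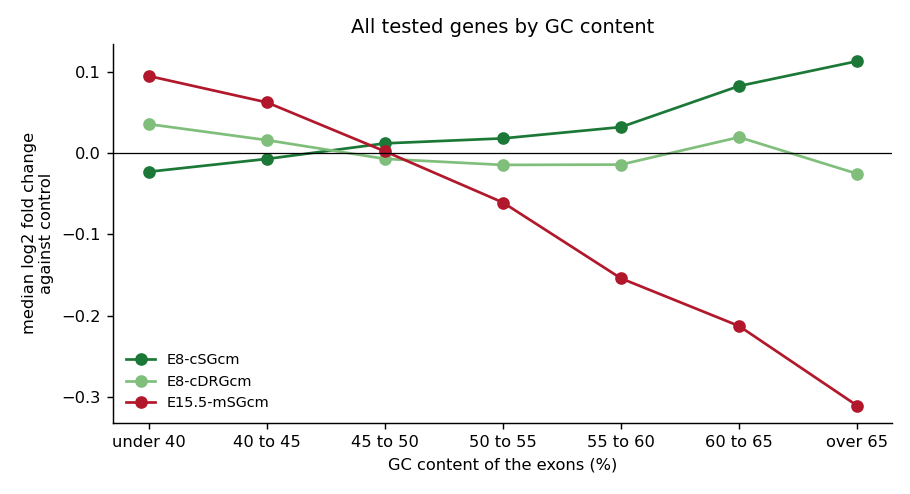
Median log2 fold change against control of all tested genes in 7 bins of exonic GC content (%), 1 line per medium. The E15.5-mSGcm line descends from 0.095 in the lowest bin to -0.31 in the highest, while both chick lines stay between -0.025 and 0.11.

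Other genes of the pathway were taken from a list of 59 in 5 groups written from general knowledge of Nogo receptor signaling, and 49 of them were tested. In E8-cSGcm 3 rose and 1 fell, in E8-cDRGcm 8 rose and 1 fell, and in E15.5-mSGcm 3 rose and 4 fell, with median log2 fold changes of 0.033, 0.18 and -0.0018 over the 49. These counts are 6.12% and 2.04%, 16.3% and 2.04%, and 6.12% and 8.16% of the 49, beside 4.73% and 3.86%, 9.81% and 10.9%, and 6.65% and 7.27% of all tested genes called higher and lower in the same media. All adjusted p below are from the edgeR quasi-likelihood test with Benjamini-Hochberg adjustment over all tested genes. The list was written with earlier results of these data known, so these adjusted p are given as a description. LINGO2, LRP1, RHOC and PTPRF are named outside the naming rule, after their values were seen, so that each small count is complete.

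NGFR, the neurotrophin receptor of the complex, rose in both chick media and fell in the mouse medium. It had 240 and 280 reads in control, 392 and 434 in E8-cSGcm, 719 and 744 in E8-cDRGcm, and 41 and 62 in E15.5-mSGcm, and the groups did not overlap. The log2 fold changes were 0.75 (SE 0.0948, adjusted p = 7.68e-08), 1.56 (SE 0.0880, adjusted p = 2.11e-17) and -1.56 (SE 0.146, adjusted p = 3.96e-11). NGFR is 63.6% GC, and with the GC correction the values were 0.67, 1.59 and -1.29. Among the other receptors and co-receptors, of which 10 of 14 were tested, LINGO2, a homolog of LINGO1, rose in E8-cSGcm (0.61, adjusted p = 3.42e-05) and E8-cDRGcm (1.23, adjusted p = 8.54e-13). The E8-cSGcm call of LINGO2 was lost without control replicate 1 (0.57) and without E8-cSGcm replicate 1 (0.56). LRP1, an endocytic receptor that can bind MAG, rose in E8-cDRGcm (1.04, adjusted p = 1.48e-14). S1PR2, a sphingosine phosphate receptor that also binds Nogo-A, fell in E8-cSGcm (-0.72, adjusted p = 2.38e-08) and E8-cDRGcm (-0.62, adjusted p = 1.37e-07), the latter call being lost with the GC correction and without E8-cDRGcm replicate 1. In the mouse medium ADGRB1, an adhesion receptor known to bind RTN4R, fell (-1.71, adjusted p = 4.20e-14), as did PTPRF, a phosphatase of the PTPRS family (-0.69), whose call was lost with the GC correction.

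OLFM1 and its receptors APP and GRIA2 were followed beside RTN4R whatever their values. OLFM1 had 866 and 1002 reads in control, 1010 and 1178 in E8-cSGcm, 1027 and 1046 in E8-cDRGcm, and 646 and 873 in E15.5-mSGcm. It was not called in any medium, with log2 fold changes of 0.31, 0.22 and 0.47 and adjusted p of 0.000525, 0.00827 and 1.40e-06. The amyloid precursor APP had 945 CPM in control, 923 in E8-cSGcm and 910.0 in E8-cDRGcm, and rose to 1452 in E15.5-mSGcm (0.62, adjusted p = 9.59e-13). That call was lost with the GC correction, with the filter at 1 read in total and without E15.5-mSGcm replicate 2. The glutamate receptor subunit GRIA2 had 17.6, 16.8, 16.3 and 23.4 CPM in the same order and was not called, the mouse difference being 0.41 (adjusted p = 0.00683). In the main fit of E15.5-mSGcm against control, RTN4R was called lower, APP was called higher and GRIA2 was not called. A link between these differences was not tested.

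Among the soluble ligands and matrix proteoglycans, 6 of 10 were tested. CSPG4, a membrane proteoglycan also known as NG2, fell in the mouse medium (-2.13, adjusted p = 2.54e-16), from 416 and 544 reads in control to 61 and 67. BCAN, the matrix proteoglycan brevican, rose there (1.16, SE 0.304, adjusted p = 0.00236) on 27 and 35 reads, and DESeq2 gave an adjusted p of 0.0557. LGI1, a secreted ligand of RTN4R, rose in E8-cDRGcm (1.47, SE 0.448, adjusted p = 0.00622) on 20 and 23 reads against 10 and 6, and was not called by DESeq2 (adjusted p = 0.0964) or without control replicate 2 (adjusted p = 0.123). Of the reticulons and their partners in the tubular endoplasmic reticulum, 10 of 11 were tested, and the reticulon RTN3 rose in E8-cDRGcm (0.69, adjusted p = 7.12e-15), as the only call of that group against control.

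Of the RhoA and ROCK genes, 17 of 18 were tested, and all calls against control were in the chick media. ARHGEF2, an exchange factor that activates RhoA, rose in E8-cSGcm (0.70, adjusted p = 1.14e-12) and E8-cDRGcm (1.31, adjusted p = 1.49e-21), from 1306 and 1451 reads in control to 1986 and 2240, and 3165 and 3368. In E15.5-mSGcm it was lower, with 503 and 583 reads and a log2 fold change of -0.57 (SE 0.0630, adjusted p = 2.09e-09), which at 1.49-fold was just under the fold threshold. RHOC rose in E8-cDRGcm (1.02, adjusted p = 2.15e-11), as did RHOA (0.64, adjusted p = 4.46e-14), both small GTPases. Of the 6 proteases that shed or process these receptors, MMP16, a membrane-type metalloproteinase, rose in the mouse medium (1.29, adjusted p = 5.27e-21).

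**Figure D4:**
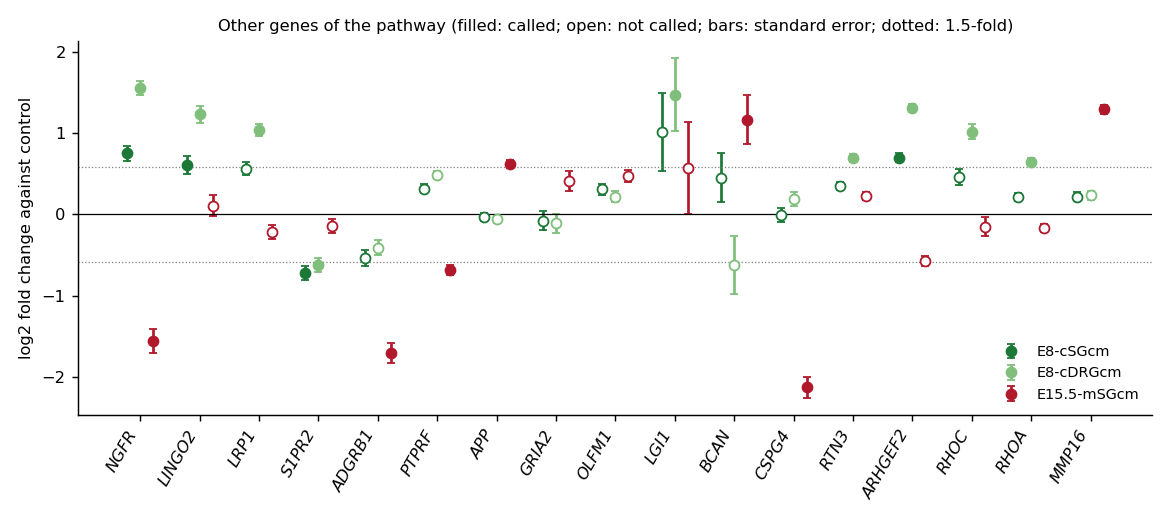
Log2 fold change against control (error bars are standard errors) of 17 other pathway genes in the 3 media; filled points were called, open points were not, and dotted lines mark 1.5-fold. NGFR lies at 0.75 and 1.56 in the chick media and -1.56 in the mouse medium, and CSPG4 at -2.13 is the lowest point.

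The aggregates were checked against markers, since in bulk RNA fewer cells of a type and less RNA per cell cannot be told apart. Of 10 noradrenergic NB genes, 9 were detected in every group and CHGA was at 0. Their summed level was 6682 to 6833 CPM in control, 5171 to 5484 in E8-cSGcm, 3980 to 4063 in E8-cDRGcm and 4147 to 4316 in E15.5-mSGcm. Most of this sum was MYCN, with 61200 and 70102 reads in control. Single genes of the list did not all follow it: HAND2 had 9689 and 10809 reads in control and 10006 and 9750 in E8-cDRGcm, and DBH had 495 and 565 in control and 378 and 483 in the shallower E15.5-mSGcm libraries, a higher share of the reads there. Of 7 fibroblast genes 6 had reads and POSTN had none, with summed levels of 158 to 175 CPM in control, 212 to 223 in E8-cSGcm, 194 to 200.1 in E8-cDRGcm and 162 to 174 in E15.5-mSGcm. In E15.5-mSGcm that sum joined genes that stood on opposite sides of control. COL1A1 had 249 reads in each mouse library against 1296 and 1716 in control, whereas PDGFRA had 67 and 97 against 14 and 8, DCN 107 and 118 against 36 and 42, and COL1A2 84 and 125 against 41 and 47. The part of these markers in the Nogo receptor differences was not tested.

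The genes whose log2 CPM followed each gene called against control most closely over the 8 libraries were sought among 14893 tested genes with a mean of at least 1 CPM. They were TUBB6 (Pearson r = 0.9994), CD9 (0.9993) and SMPD4 (0.9968) for RTN4R. For RTN4RL2 they were MYCBPAP (0.9973), COTL1 (0.9967) and RNF26 (0.9965), for LINGO1 GATA6 (0.9923), EIF3M (0.9873) and CYB5R2 (0.987), and for RTN4 CHMP4B (0.9975), CLPX (0.9929) and ZFAND3 (0.9908). Over the same libraries r was 0.959 between RTN4R and LINGO1, 0.951 between RTN4R and RTN4RL2, 0.914 between RTN4RL2 and LINGO1, and 0.227 between RTN4R and RTN4. PTPRS, which was called in no medium against control, had r of 0.874 to 0.880 with the 3 receptor and co-receptor genes. These are descriptions over 4 groups of 2 libraries that share a cell line, normalization and, for the receptors, a high GC content.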

How the data were processed

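Total RNA (50 ng, RIN above 8.0) was made into stranded libraries with a SMARTer Pico kit and read on a NextSeq500 as 75 bp single reads. Per the submitters' processing notes the authors used bcl2fastq 2.17.1.14, cutadapt 1.9.1, TopHat2 2.1.0 and HTSeq 0.11.3. The methods name hg19 and those notes hg38, and this could not be settled; the strand option, annotation release and read filters are not given in the sources used here. The authors deposited raw read counts per Ensembl gene, not normalized or filtered. Symbols, positions, length and GC content came from GENCODE 44 on GRCh37, which matched 58611 of 60676 IDs, and promoters from RefSeq GRCh38.p14.

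Groups came from the sample labels. Counts were normalized by TMM, filtered by filterByExpr and fitted over all 8 libraries with edgeR 4.0.16 (robust quasi-likelihood, R 4.3.3). Of 60676 genes, 16680 were tested. Genes were called at 1.5-fold or more with an adjusted p under 0.05. RPKM used the union of exons. The steps were tested on simulated data. No batch is given in the labels. Chi-square per gene between duplicates was 1.78 to 3.64, so none was a copy of another.

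The genes, lists and tests were chosen with earlier results of these data known. All 9 genes are named, with NGFR, OLFM1, APP and GRIA2, the highest and lowest called gene of each pathway list per medium, and the 3 genes most like each member called against control. Alternatives were DESeq2 1.42.0, RLE size factors, filters of 1 count in total or 10 in every library, adjusted p alone, only the libraries compared, a replicate block and leaving out each library. A GC and length correction by splines with 5 degrees of freedom, with and without the block, was added after seeing the data. Figures used matplotlib 3.10.9. Of the glial marker list, 1 gene is not reported here.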

Additional observations from a re-analysis of the deposited data

Results flagged for a closer look

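7 differences were marked by a rule applied to these same values. The effects of the mouse medium and a chick medium against control had opposite signs, neither medium's libraries overlapped control, and the direct comparison was called. On the log2 scale, E15.5-mSGcm minus E8-cSGcm was -2.80 for RTN4R, -1.76 for RTN4RL2 and -1.44 for LINGO1. E15.5-mSGcm minus E8-cDRGcm was -2.75 for RTN4R, -1.75 for RTN4RL2, -1.57 for LINGO1 and -0.72 for PTPRS. That the mouse and chick libraries lay apart in each of the 7 follows from this rule. The rule does not set the direction, and in each of the 7 the mouse libraries lay below. The rule did not ask for a call against control. In the main fit the chick medium effects of RTN4R, LINGO1 and PTPRS against control were not called. The mouse medium effect of PTPRS was not called either. The share of all genes that meet the rule was not counted. The genes were listed with these contrasts known, so the values are descriptions.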

How the results depend on the processing

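The calls of RTN4R, RTN4RL2 and LINGO1 lower in E15.5-mSGcm, and of RTN4RL2 higher in both chick media, held under every alternative run. Of the values of the 5 genes under alternatives, 460 kept direction and call, 2 gained a call, 3 lost one and 15 turned sign. By adjusted p alone, genes of the group called higher were 3 (E8-cSGcm), 4 (E8-cDRGcm), 1 (E15.5-mSGcm) and 2 (E8-cDRGcm minus E8-cSGcm). PTPRS then joined the genes called lower in E15.5-mSGcm against control. Pathway genes by the same rule were 14 higher and 8 lower in E8-cSGcm, 25 and 9 in E8-cDRGcm, and 15 and 14 in E15.5-mSGcm. The share of all genes called by adjusted p alone was not counted. The shares given above also use the fold threshold and are no base for these counts. The filter at 1 count added TNFRSF19 as 1 higher in E15.5-mSGcm against control, E8-cSGcm and E8-cDRGcm. In E15.5-mSGcm against control the higher calls then went from 47.8% to 41.7% of all genes called either way. The GC correction, with or without the replicate block, left 1 of the group higher in E8-cDRGcm, and 2 (E8-cSGcm) and 0 (E8-cDRGcm) pathway genes lower. Over all genes the GC correction called 1638 higher and 1836 lower in E8-cDRGcm, and 668 lower in E8-cSGcm. With the block these were 1634, 1826 and 648, against 1636, 1824 and 644 in the main fit. Leaving out 1 library leaves a group with 1 library, so the counts of genes called in those fits are not set out by medium. Signs turned only where nothing was called. PTPRS in E8-cSGcm was -0.0075 with GC correction (-0.0076 with the block) and -0.024 to 0.076 with a library left out. E8-cDRGcm minus E8-cSGcm was 0.078 (0.079) and -0.14 to 0.045 for RTN4R, and 0.11 (0.11) and -0.15 to 0.12 for RTN4RL2. E15.5-mSGcm minus E8-cSGcm was -0.049 (-0.049) and -0.0028 to 0.046 for RTN4, and -0.032 with the 1-count filter. The cause was not tested. The replicate numbers did not pair the libraries (correlations of deviations from -0.0437 to 0.042), and the replicate block changed no call of the group, with 771 and 643 genes called higher and lower in E8-cSGcm, 1626 and 1818 in E8-cDRGcm, and 1085 and 1203 in E15.5-mSGcm. DESeq2 called 456 and 395 genes in E8-cSGcm and 704 and 879 in E15.5-mSGcm, against 789 and 644, and 1109 and 1213.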
